A study of Mus musculus with 6 samples.

Results

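The transcripts described here are those of the major histocompatibility complex (MHC) and of the machinery that supplies it with antigen. All symbols in the deposited tables that begin with H2- (the mouse MHC), 43 in number, were joined with 18 named genes: B2m, Cd74, Ciita, Nlrc5, Tap1, Tap2, Tapbp, Erap1, Psmb8, Psmb9, Psmb10, Calr, Canx, Pdia3, Cd1d1, Cd80, Cd86 and Cd274. This gave 61 of the 24421 symbols listed. The samples were primary liver sinusoidal endothelial cells (LSECs) of mice whose genotype the labels give as wild, selected from liver with beads against CD146, held overnight on collagen I and deprived of serum for 6 h. The 3 pressure libraries came from cells that then received 8 h of hydrostatic pressure that cycled at 0.01 Hz from 101 to 135 kPa in absolute terms. The 3 control libraries are labelled as controls, and how those cells were handled over the 8 h is not given in the labels. The labels do not say whether the 3 libraries of a group came from separate animals or cultures, so every p-value measures only the spread between these libraries, which may be technical, and all 6 carry 1 batch label.

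LSECs line the liver sinusoids, take up blood-borne antigen and can present it to T cells. In the class I pathway the proteasome cuts cytosolic proteins, the TAP transporter carries the peptides into the endoplasmic reticulum, and a loading complex places them on a heavy chain paired with beta-2-microglobulin. In the class II pathway the alpha and beta chains travel with the invariant chain Cd74 to endosomes, where the H2-DM molecule helps exchange the invariant chain peptide for antigen. The transactivator Nlrc5 drives class I genes and Ciita drives class II genes, and interferon gamma induces many genes of both pathways.

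The promoters of classical class I genes are known to carry an NF-kB-type element (enhancer A) beside an interferon-stimulated response element. In RefSeq windows from 250 bases before to 50 after the annotated start (build GRCm38.p6), searched on both strands, the interferon-type letters TTTCACTT stood in 10 of the 43 members that had a window and in 1.91% of all genes with one. The NF-kB-type letters GGGATTCCC stood in 4 of these 43 members, against 0.414% of all genes. Stretches of 30 bases from 7 members are shown, each on the gene's own strand, 5′ to 3′. All 7 hold the interferon-type letters, and 4 of them also hold the NF-kB-type letters. Capitals mark both sets of letters, and a match of letters is a description, not a site shown to be bound.
H2-K1 (chr17:34000429-34000458, minus strand): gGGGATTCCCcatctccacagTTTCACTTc
H2-D1 (chr17:35262923-35262952, plus strand): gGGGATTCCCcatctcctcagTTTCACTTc
H2-Q4 (chr17:35379443-35379472, plus strand): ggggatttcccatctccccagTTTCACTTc
H2-Q6 (chr17:35424677-35424706, plus strand): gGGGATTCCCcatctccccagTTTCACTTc
H2-Q7 (chr17:35439021-35439050, plus strand): tgGGGATTCCCatctccccagTTTCACTTc
H2-M3 (chr17:37270112-37270141, plus strand): attcccccatttcctctgaggTTTCACTTc
H2-T22 (chr17:36042925-36042954, minus strand): gagagtccctaattggcttagTTTCACTTt
Of the 4 genes with both sets of letters, H2-Q6 and H2-Q7 were higher under pressure and H2-K1 and H2-D1 did not pass the test. Their log2 fold changes were 0.28 ± 0.10, 0.22 ± 0.08, 0.12 ± 0.08 and 0.04 ± 0.08 (SE) in that order. Whether these 4 changes differed from one another was not tested, and the H2-Q6 and H2-Q7 calls were lost without control replicate 1 or 3. Of the tested members with the interferon-type letters alone, H2-M3 and H2-T22 were lower, and H2-Q4, H2-Q10 and Erap1 did not pass.

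Levels are given as CPM, the usual counts scaled to library size, here with TMM factors that align the bulk of genes between libraries. The libraries held between 12922959 and 18655749 counts, and no pair agreed within sampling noise (lowest chi-square per degree of freedom 2.96). Pressure replicate 3 stood apart, with a correlation to another pressure library as low as 0.990, against 0.996 between the other pressure replicates, so counts are also given without it. The 11 LSEC markers were all present: Pecam1, an endothelial adhesion molecule, averaged 1127 CPM in control and 1095 CPM under pressure. Of the 11, 7 were lower under pressure, where 35.1% of all genes tested were lower. Kupffer cell and macrophage markers were abundant too, their 11 listed genes summing to between 5757 and 6339 CPM in control and between 5496 and 5975 CPM under pressure. In such bulk samples, fewer cells of a type and less RNA per cell cannot be told apart.

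Among the members, the largest changes were a fall of the immunoproteasome subunit Psmb9 and of the nonclassical class I gene H2-T24, and a rise of the costimulatory ligand Cd86. The class II chains and Cd74 were higher by 1.22- to 1.45-fold, the TAP transporter genes were lower, and the classical class I heavy chains did not pass the test. Of the 43 members with enough counts to test, 14 were higher, 14 were lower and 15 did not pass at an adjusted p of 0.05 (edgeR quasi-likelihood test, Benjamini-Hochberg over 12892 genes). The 28 called members are 65.1% of those tested, where 68.8% of all genes tested were called; 32.6% of the tested members were higher against 33.7% of all genes, and 32.6% were lower against 35.1%. These shares lie near the background of a comparison in which most genes moved. The groups' values did not overlap for 29 tested members (67.4%), against 71.9% of all genes tested.

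The size of the changes was modest. The median absolute log2 fold change was 0.32 over the 43 tested members and 0.54 over all genes tested, and the median signed value was 0.07 against -0.02. Only Psmb9, H2-T24 and Cd86 both passed the test and changed by at least 1 on the log2 scale, which is 6.98% of the tested members against 23.3% of all genes. Without pressure replicate 3, 15 members were higher and 14 lower. The number higher depended on scaling and on single control libraries: it was 8 with upper-quartile factors, 5 with library totals alone, and 8 without control replicate 1 or without control replicate 3. The number lower was 16 and 20 under those 2 scalings.

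**Figure D1:**
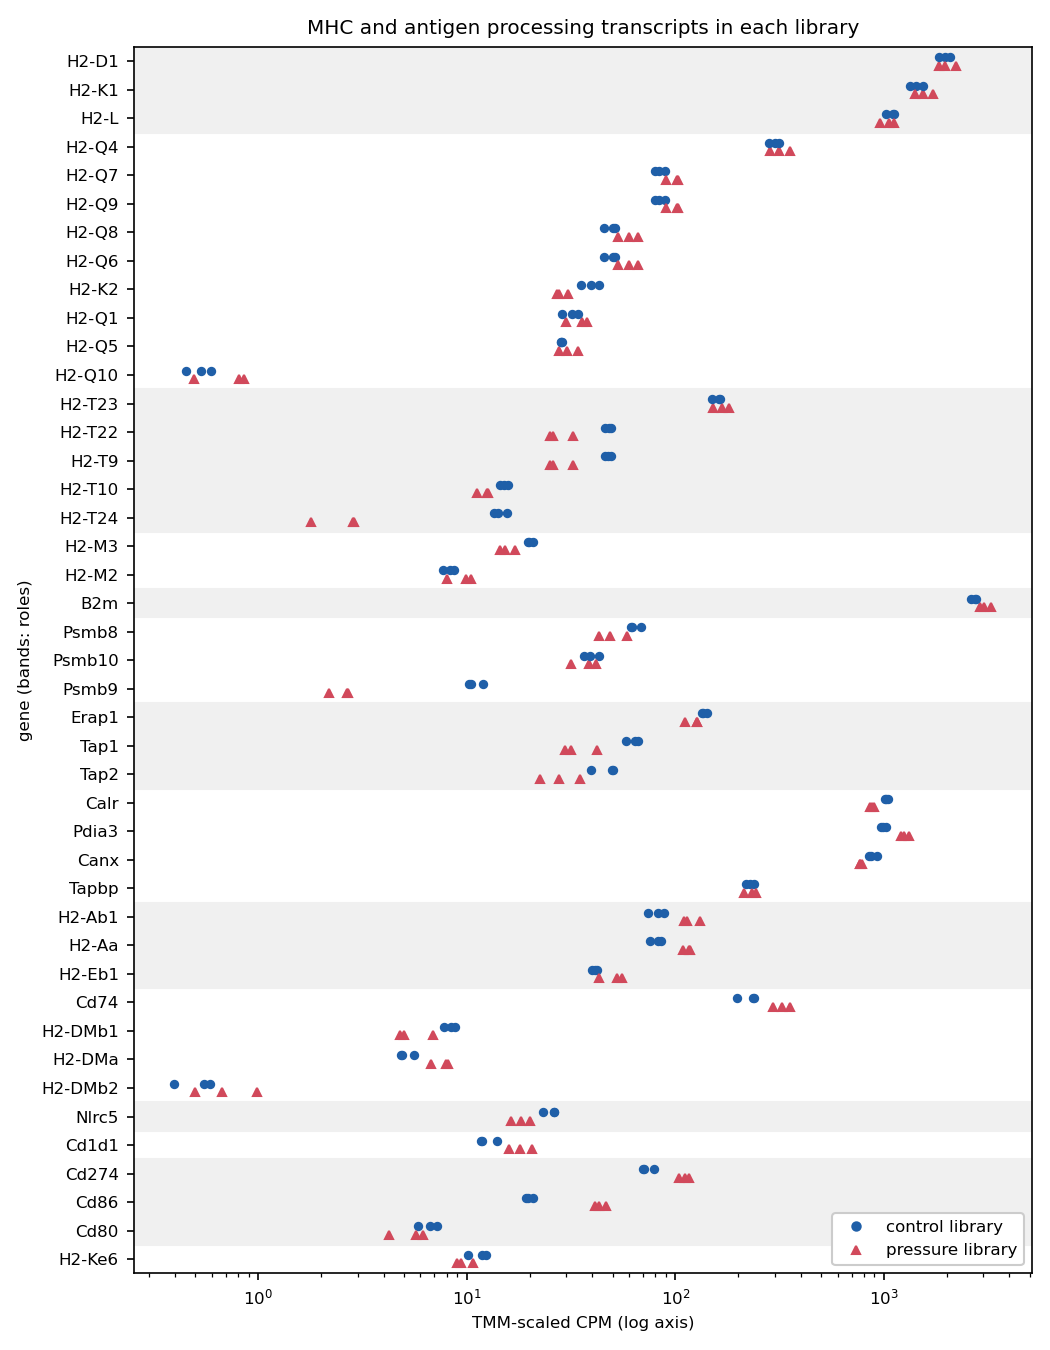
TMM-scaled CPM (log axis) of the 43 tested members in each library, ordered by role (shaded bands) and within a role by control level. Circles are the 3 control libraries and triangles the 3 pressure libraries; Psmb9, H2-T24, H2-T22, Tap1 and Cd86 show the groups apart, while H2-D1, H2-K1 and H2-L overlap.

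The classical class I heavy chains, which present peptides to CD8 T cells, were among the most abundant members. Per kilobase of annotated exon, control cells held 3138 ± 95.7 CPM of B2m, 759.7 ± 43.4 of H2-D1 and 489 ± 35.8 of H2-K1 (SD, n = 3), against 133 ± 13.3 of Cd74 and 31.8 ± 2.82 of H2-Ab1. H2-K1 was measured at 1428, 1545 and 1335 CPM in control and at 1546, 1405 and 1718 CPM under pressure. H2-D1 lay at 1963, 2069 and 1846 CPM in control and at 1974, 1845 and 2214 CPM under pressure. Both sets of values overlapped, with log2 fold changes of 0.12 ± 0.08 for H2-K1 and 0.04 ± 0.08 for H2-D1 (SE), and both turned negative with library totals alone. H2-L, the third classical heavy chain symbol, averaged 1083 ± 49.2 CPM in control and 1043 ± 82.3 CPM under pressure, a log2 fold change of -0.05 ± 0.07 with an adjusted p of 0.523.

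Many class I reads cannot be placed on 1 gene, and the deposited values show this as fractions of a count. Of the 19 class I heavy chain members tested, 15 had fractional values in all 6 libraries; none of the other 24 tested members did, and 13 of these had whole counts throughout, among them B2m, Psmb8, Psmb9, Psmb10, H2-Aa, H2-Ab1, H2-Eb1 and Cd86. H2-Q7 and H2-Q9 carried the same value in 6 of 6 libraries. H2-Q6 and H2-Q8 were equal in 5 libraries and differed by at most 1 count in the other, and H2-T22 and H2-T9 were equal in 3 and differed by at most 6 counts elsewhere. The H2-L value was between 0.505 and 0.563 of that of H2-D1 in every library. H2-L, H2-Q8, H2-Q9 and H2-T9 have no gene of that name in the GENCODE M21 annotation. Each pair is therefore uncertain as to its source gene and counts as 1 measurement: with these 4 pairs joined, 39 units were tested, of which 12 were higher and 13 lower. The share of 101-base transcript windows, the read length, also found in another annotated gene was 31.2% for H2-T22, 27.9% for H2-T10, 13.9% for H2-Q4, 3.55% for H2-D1 and 0.905% for H2-K1, and it was 0 for H2-T24. For H2-T22, H2-T10 and H2-Q4, most of this share came from an antisense gene whose exons overlap theirs. These antisense genes are A930015D03Rik, BC023719 and Gm11131 in that order. For these members the share therefore does not measure how many reads fit another class I gene. H2-T24 had fractional values in 4 of 6 libraries despite its share of 0, so identical windows do not capture all splitting of reads.

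Adding all class I heavy chain counts into 1 value avoids the split among the listed H2 paralogues. It does not recover reads assigned to genes outside the sum, such as Gm11127 and Gm7030, which share windows with H2-K2. The sum was 5456 ± 312 CPM in control and 5601 ± 514 CPM under pressure (SD, n = 3), a log2 fold change of 0.04 ± 0.08 (SE) with an adjusted p of 0.668. It did not pass under any scaling tried, and its sign turned with library totals alone (-0.17, adjusted p 0.0666), with upper-quartile factors (-0.07) and without pressure replicate 3 (-0.03) or control replicate 3 (-0.01). Leaving H2-L out gave 0.06 with an adjusted p of 0.508. As a share of all counts, class I heavy chains took 0.587 ± 0.031% in control and 0.520 ± 0.053% under pressure.

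B2m, the light chain of class I molecules, was measured at 2606, 2764 and 2725 CPM in control and at 2881, 3012 and 3268 CPM under pressure. Every pressure value was above every control value, and the log2 fold change was 0.18 ± 0.06 with an adjusted p of 0.0292. This was the smallest change called among the members. It was lost when any 1 control library was left out (adjusted p 0.0596 to 0.133), and with library totals alone the estimate was -0.03.

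The H2-Q genes encode class Ib molecules, close relatives of the classical heavy chains that include the Qa-2 antigens. The value shared by H2-Q7 and H2-Q9 was 83.6, 89.6 and 79.9 CPM in control and 101.6, 90.2 and 103 CPM under pressure, a narrow separation with a log2 fold change of 0.22 ± 0.08 and an adjusted p of 0.0381. H2-Q6, like H2-Q8, rose from 48.9 ± 3.10 to 59.7 ± 6.33 CPM, a log2 fold change of 0.28 ± 0.10 with an adjusted p of 0.0236. Both calls were lost without control replicate 1 or 3, with upper-quartile factors and with library totals alone, and that of H2-Q7 also without pressure replicate 1. H2-Q4, the most abundant of the group at 299 ± 16.5 CPM in control and 318 ± 34.1 CPM under pressure, did not pass (adjusted p 0.400), nor did H2-Q1, H2-Q5 or H2-Q10. H2-K2, annotated as a transcribed pseudogene, was lower at 28.4 ± 1.78 CPM against 39.2 ± 3.84 CPM in control, with a log2 fold change of -0.47 ± 0.10 and an adjusted p of 0.00181.

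Of the nonclassical H2-T genes 4 of 5 tested symbols were lower and none higher, or 3 of 4 with H2-T22 and H2-T9 as 1 measurement, where 35.1% of all genes tested were lower. H2-T24 stood at 15.6, 13.5 and 14.1 CPM in control and at 2.87, 2.86 and 1.80 CPM under pressure. The groups were far apart, with a log2 fold change of -2.49 ± 0.17 and an adjusted p of 6.77e-07. H2-T22, a ligand of some gamma-delta T cell receptors, was at 47.9, 49.2 and 46.0 CPM in control and at 25.8, 25.2 and 32.4 CPM under pressure, with a log2 fold change of -0.78 ± 0.11 and an adjusted p of 8.62e-05. Joining it with H2-T9 gave the same log2 fold change, -0.78. An opposite-strand gene, A930015D03Rik, covers 29.4% of the exonic length of H2-T22 and averaged 1.02 CPM in control and 0.861 CPM under pressure; how shared reads were assigned is not known, and its part in the H2-T22 result was not tested. H2-T10, related to H2-T22, was lower by a smaller amount (log2 fold change -0.32 ± 0.11, adjusted p 0.0206), a call lost without control replicate 1, control replicate 2 or pressure replicate 2.

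H2-T23 encodes Qa-1, the ligand of the CD94/NKG2A receptor of natural killer cells. It averaged 159 ± 7.95 CPM in control and 167 ± 14.2 CPM under pressure and did not pass (log2 fold change 0.07 ± 0.08, adjusted p 0.463). H2-M3, which presents N-formylated peptides, was lower, at 20.8, 19.7 and 19.9 CPM in control and 14.5, 15.3 and 17.1 CPM under pressure (log2 fold change -0.37 ± 0.10, adjusted p 0.00772). H2-M2 did not pass, except without pressure replicate 3 (adjusted p 0.0377). Of the 12 H2-M class I symbols, 8 had no count in any library.

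**Figure D2:**
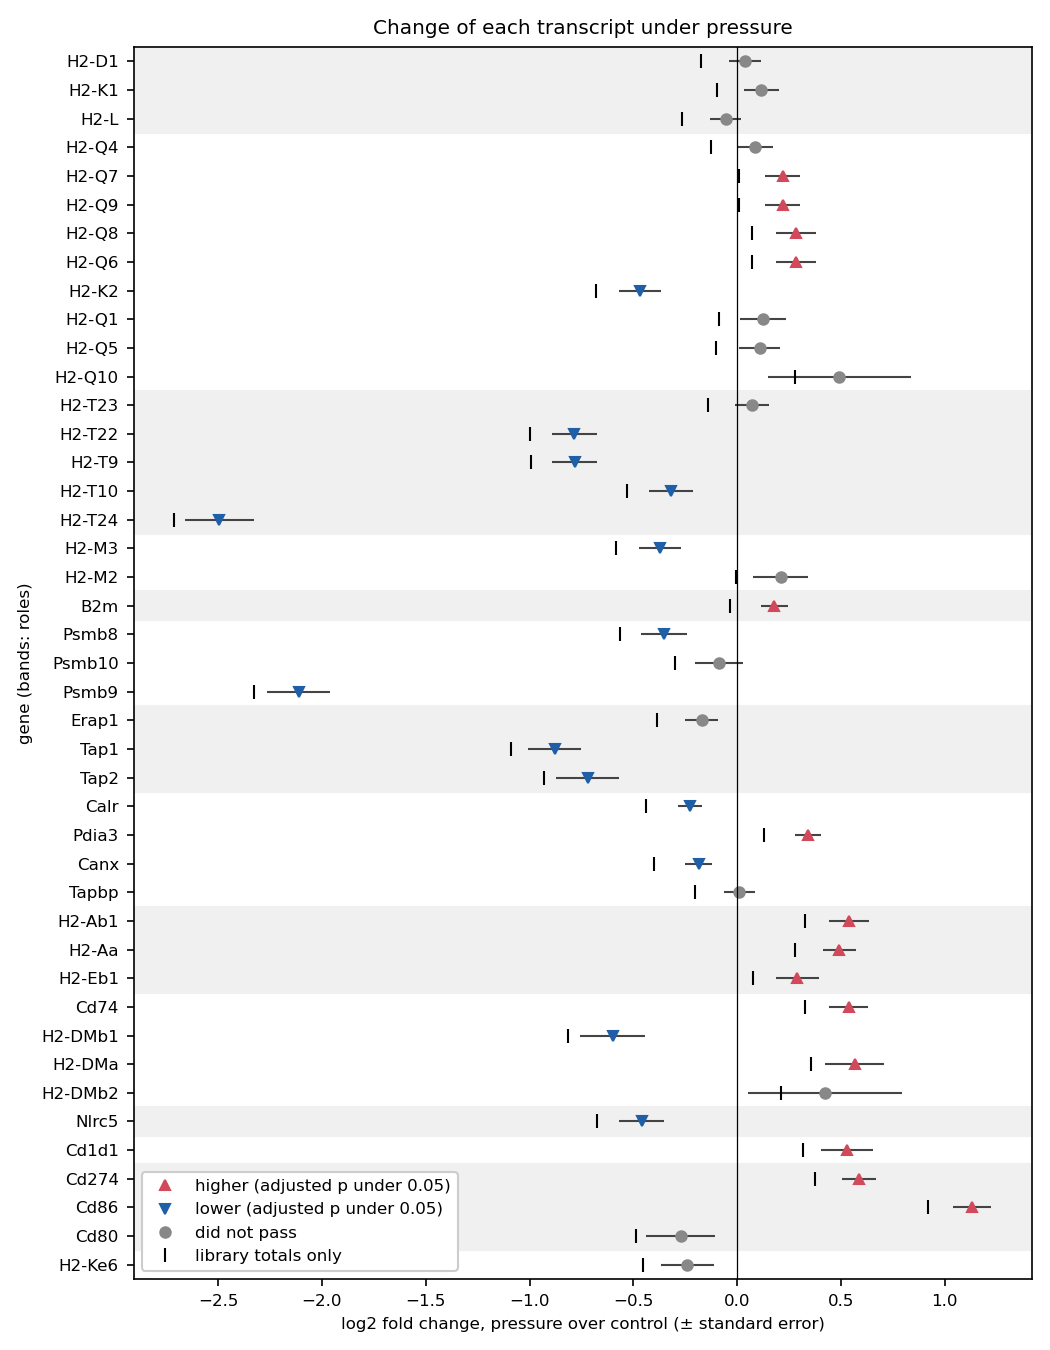
Log2 fold change of each tested member, pressure over control, with its standard error; upward triangles passed as higher, downward triangles as lower, and grey circles did not pass. Vertical ticks give the estimate with library totals alone, which shifts all genes to the left: Cd86 and Psmb9 keep their side. B2m, Tapbp and the classical heavy chains H2-D1 and H2-K1 are among the members that change sign.

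The immunoproteasome replaces 3 catalytic subunits of the constitutive proteasome and yields peptides that suit class I molecules. Psmb9 was measured at 10.24, 10.51 and 11.96 CPM in control and at 2.18, 2.67 and 2.70 CPM under pressure. The groups were well apart, and the log2 fold change was -2.11 ± 0.15 with an adjusted p of 1.04e-06. Psmb8 was lower by much less, from 61.2, 68.3 and 62.0 CPM to 48.5, 43.2 and 58.8 CPM (log2 fold change -0.35 ± 0.11, adjusted p 0.0166), and it no longer passed when control replicate 2 (adjusted p 0.0696) or pressure replicate 2 (adjusted p 0.0785) was left out. Psmb10 overlapped between groups at 39.6 ± 3.44 and 37.3 ± 5.10 CPM and did not pass (log2 fold change -0.09 ± 0.12, adjusted p 0.511).

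Each of these subunits was also set against the constitutive subunit it replaces, a ratio within a library that does not depend on scaling. Psmb9 counts were 5.08%, 4.79% and 6.15% of those of Psmb6 in control and 0.857%, 1.07% and 0.899% under pressure. Psmb8 counts were 51.6%, 53.1% and 54.1% of those of Psmb5 in control and 41.5%, 36.1% and 38.7% under pressure. Psmb10 counts were 21.8%, 23.9% and 23.9% of those of Psmb7 in control and 14.7%, 12.2% and 15.3% under pressure. All 3 ratios were lower in every pressure library than in any control library, with log2 differences of -2.50 for Psmb9, -0.45 for Psmb8 and -0.73 for Psmb10. The exact two-sided permutation test gave p = 0.1 for each, also after adjustment over the 3 ratios, which is the smallest p that 3 against 3 libraries allow. Among the constitutive subunits Psmb6 was higher (log2 fold change 0.39 ± 0.09, adjusted p 0.00278), Psmb7 was higher (0.64 ± 0.07, adjusted p 2.00e-05) and Psmb5 did not pass. The Psmb6 call was lost with library totals alone (log2 fold change 0.17, adjusted p 0.115). Within the Psmb10 ratio the denominator changed more than the numerator.

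**Figure D3:**
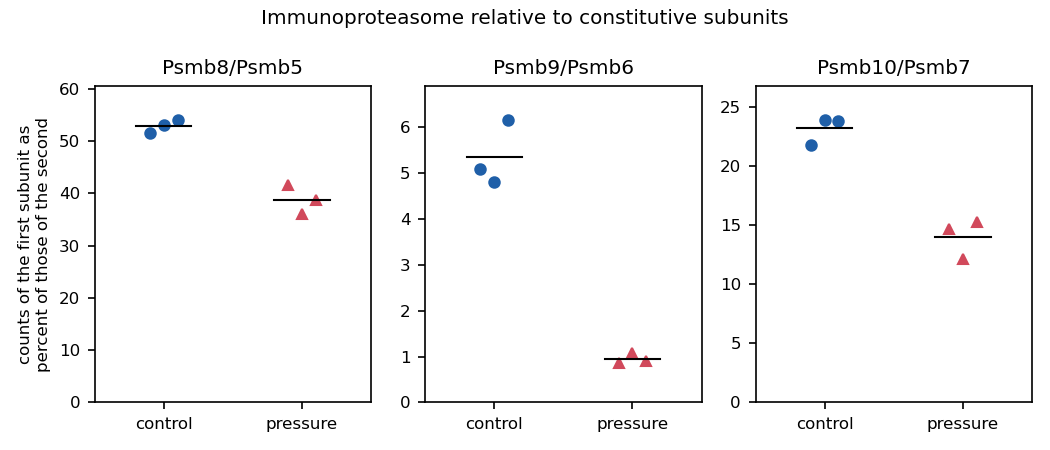
Counts of each immunoproteasome subunit as a percent of those of its constitutive counterpart in each library, with the group mean as a bar and the vertical axis starting at 0. The Psmb9 to Psmb6 ratio lies between 4.79% and 6.15% in control and between 0.857% and 1.07% under pressure.

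Both genes of the peptide transporter were lower. Tap1 and Tap2 form the TAP transporter; Tap1 was at 64.2, 66.2 and 58.1 CPM in control and at 31.5, 29.5 and 41.9 CPM under pressure, a log2 fold change of -0.88 ± 0.13 with an adjusted p of 0.000118. Tap2 was at 50.1, 49.5 and 39.5 CPM in control and at 27.6, 22.5 and 34.9 CPM under pressure, a log2 fold change of -0.72 ± 0.15 with an adjusted p of 0.00164. Neither gene's groups overlapped. Pressure replicate 3 was the highest pressure library for both, as it was for 10 of the 14 members that were lower and for 11 of the 14 that were higher. The matching share over all genes tested was not computed, so whether this is particular to the members is not known. Psmb9 and Tap1 are neighbours on chromosome 17 (mm10, GENCODE M21: Psmb9 at 34181987 to 34187764 on the minus strand, Tap1 at 34187553 to 34197225 on the plus strand). Their exons share 212 bases on opposite strands, and 2.70% of the 101-base windows of Psmb9 are also in Tap1. Psmb8 and Tap2 follow at 34197721 to 34201454 and 34203527 to 34216321 on the plus strand. These 4 neighbouring genes were all lower, where 35.1% of all genes tested were lower. The Psmb8 call was lost without control replicate 2 or pressure replicate 2. Of the nearest tested members on either side, H2-DMb1 was lower, and H2-Ab1 and H2-Aa were higher. Erap1, the aminopeptidase that trims peptides in the endoplasmic reticulum, did not pass (log2 fold change -0.17 ± 0.08, adjusted p 0.0784), although its groups did not overlap.

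The chaperones of class I assembly went both ways. Pdia3, the thiol oxidoreductase of the loading complex, was at 963, 1028 and 992 CPM in control and at 1209, 1242 and 1325 CPM under pressure (log2 fold change 0.34 ± 0.06, adjusted p 0.000722); with library totals alone the call was lost (0.13, adjusted p 0.115). Calr, the lectin chaperone calreticulin, was at 1020.3, 1045 and 1008 CPM in control and at 892, 877 and 857 CPM under pressure (log2 fold change -0.23 ± 0.06, adjusted p 0.00546). Canx, its membrane-bound relative calnexin, was lower by -0.19 ± 0.06 on the log2 scale (adjusted p 0.0236), a call that DESeq2 did not make (adjusted p 0.0516) and that was lost without control replicate 1 or 3 or pressure replicate 1. Tapbp, tapasin, which bridges TAP and the heavy chain, averaged 229 ± 9.69 CPM in control and 231 ± 14.9 CPM under pressure (log2 fold change 0.01 ± 0.08, adjusted p 0.912), and with library totals alone it was called lower (-0.20, adjusted p 0.0343).

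The class II chains, which present peptides to CD4 T cells, were higher in all 3 tested genes. H2-Ab1 was at 82.8, 88.1 and 73.8 CPM in control and at 111, 114 and 131 CPM under pressure (log2 fold change 0.54 ± 0.10, adjusted p 0.000521). H2-Aa was at 85.6, 82.5 and 75.6 CPM in control and at 109, 118 and 116 CPM under pressure (log2 fold change 0.49 ± 0.08, adjusted p 0.000270). No control library reached a pressure library in either gene. H2-Eb1 rose less, from 41.1 ± 1.05 to 50.4 ± 6.37 CPM (log2 fold change 0.29 ± 0.10, adjusted p 0.0257), and its call was lost without any 1 of the control libraries or pressure replicate 1, and under upper-quartile and library-total scaling. H2-Eb2 held at most 7 counts in a library and H2-Ea-ps, annotated as a polymorphic pseudogene, held none.

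Cd74, the invariant chain that guides class II molecules, was at 235, 238 and 198 CPM in control and at 295, 325 and 355 CPM under pressure. It moved by about as much as H2-Ab1, with a log2 fold change of 0.54 ± 0.10 and an adjusted p of 0.000506. The H2-DM subunits, which edit the peptides bound to class II, split: H2-DMa rose from 5.11 ± 0.418 to 7.61 ± 0.765 CPM (log2 fold change 0.57 ± 0.14, adjusted p 0.00444) and H2-DMb1 fell from 8.30 ± 0.477 to 5.55 ± 1.15 CPM (-0.60 ± 0.16, adjusted p 0.00587). Brd2, a far more abundant gene on the opposite strand that shares 10.44% of the exonic length of H2-DMa, rose from 324 ± 9.17 to 925 ± 126 CPM; whether the counting used strand is not given in the sources used here, so reads of the shared stretch may not be told apart, and its part in the H2-DMa result was not tested. H2-DMb2 did not pass at below 1 CPM. H2-Ob, a subunit of the H2-DO molecule that restrains H2-DM, had 5, 4 and 3 counts in control and 0 in each pressure library, where a count of 0 allows up to 3 counts, and H2-Oa had at most 1 count.

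The transactivator of class II, Ciita, was barely detected. It had 4, 7 and 6 counts in control and 9, 1 and 1 counts under pressure and was not tested, so the class II genes were measured as higher beside a Ciita level of 0.323 ± 0.107 CPM in control and 0.234 ± 0.283 CPM under pressure. Nlrc5, the class I transactivator, was lower, at 26.2, 23.2 and 26.2 CPM in control and 20.1, 18.3 and 16.4 CPM under pressure (log2 fold change -0.46 ± 0.11, adjusted p 0.00303). Cd1d1, which presents lipids to natural killer T cells, was higher, at 11.7, 13.9 and 11.9 CPM in control and 16.0, 18.0 and 20.5 CPM under pressure (log2 fold change 0.53 ± 0.13, adjusted p 0.00319); with library totals alone its adjusted p was 0.0509.

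Other antigen-presenting cells in the bead selection would also carry class II transcripts, so the sum of H2-Aa, H2-Ab1, H2-Eb1 and Cd74 was set against marker sums within each library. The log2 ratio to the macrophage markers was -3.84 ± 0.045 in control and -3.23 ± 0.046 under pressure, a difference of 0.61. Against the LSEC markers it was -4.23 ± 0.145 and -3.40 ± 0.246, a difference of 0.83, and against the dendritic cell markers 2.98 ± 0.029 and 4.19 ± 0.094, a difference of 1.21. These are descriptions with no test. The LSEC marker sum itself fell, from between 7702.4 and 8218.5 CPM in control to between 5714.5 and 6835.4 CPM under pressure. The ratio to that sum therefore rose partly through its denominator. The macrophage list was not uniform, with 2 of 11 genes higher (Csf1r and Marco), 2 lower (Cd5l and Vsig4) and 7 not passing. Over all genes tested, 33.7% were higher and 35.1% lower. Cd5l (2560 CPM in control, 1885 CPM under pressure) and Marco (1991 and 2302 CPM) made up most of the macrophage sum. The ratio to that sum therefore rests mainly on these 2 genes. The less abundant Csf1r and Vsig4 had log2 fold changes of 0.39 and -0.57. The dendritic cell sum fell from between 50.1 and 57.4 CPM to between 30.3 and 35.4 CPM largely through Clec9a, which went from 19.5 ± 1.33 to 1.43 ± 0.236 CPM. Of the 6 tested genes of the dendritic cell list Clec9a was lower, Xcr1 was higher (log2 fold change 1.99 ± 0.49, adjusted p 0.00420, at 0.281 CPM in control and 1.16 CPM under pressure) and 4 did not pass. Under pressure most of the dendritic cell sum was Zbtb46 (16.2 ± 0.764 CPM) and Itgax (8.45 ± 1.42 CPM), neither of which passed. The ratio to that sum therefore rests on few genes. B cell markers, from cells that express class II strongly, summed to between 1.20 and 1.59 CPM in control and between 1.15 and 3.99 CPM under pressure, and none of the 5 listed was abundant enough to test.

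**Figure D4:**
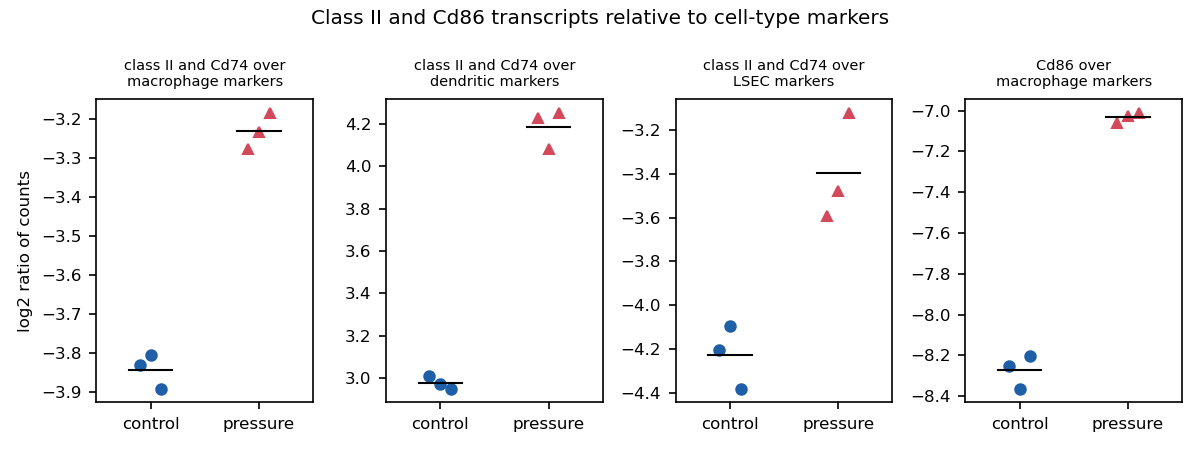
Log2 ratio, within each library, of summed class II and Cd74 counts to 3 marker sums and of Cd86 to the macrophage marker sum, with the group mean as a bar; the vertical axes differ and do not start at 0. Control and pressure libraries are apart in all 4 panels, by 0.61, 1.21, 0.83 and 1.24.

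The ligands that act beside the MHC on T cells differed from one another. Cd86, a costimulatory ligand of CD28 and CTLA-4, was at 20.8, 19.1 and 19.6 CPM in control and at 41.1, 43.2 and 46.3 CPM under pressure. The change was 2.19-fold, a log2 fold change of 1.13 ± 0.09 with an adjusted p of 2.17e-06. Relative to the macrophage marker sum, most of which was Cd5l and Marco, the difference was 1.24 on the log2 scale. Cd274, the inhibitory ligand PD-L1, was at 79.2, 71.0 and 70.1 CPM in control and at 104, 116 and 111 CPM under pressure (log2 fold change 0.59 ± 0.08, adjusted p 0.000106). Cd80, the other CD28 ligand, was low, at 6.57 ± 0.683 CPM in control and 5.38 ± 0.990 CPM under pressure, and did not pass (log2 fold change -0.27 ± 0.16, adjusted p 0.164). Whether Cd86 and Cd80 differed from each other in their change was not tested.

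The remaining members complete the account. H2-Ke6 lies in the MHC and carries its prefix but encodes a hydroxysteroid dehydrogenase; it did not pass (log2 fold change -0.24 ± 0.13, adjusted p 0.115). Of the 18 members not tested, 9 had no count in any library and the highest count of any was 9. The calls of Cd86, Cd274, Cd74, H2-Aa and H2-Ab1 as higher, and of Psmb9, Tap1, Tap2, H2-T24, H2-T22, H2-T9, H2-K2, H2-M3, H2-DMb1, Calr and Nlrc5 as lower, were made in each of 15 fits, the one reported and those with another scaling, filter, tool, rounding, block or with 1 library left out.

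The counts in the pathway lists that follow stand beside 33.7% higher and 35.1% lower over all genes tested. In interferon gamma signalling, which induces many of the members, 4 of 11 tested genes were higher and 7 lower, with a median log2 fold change of -0.46 against -0.02 over all genes tested. Among the 4, the call of Irf9 was lost with library totals alone (0.0070, adjusted p 0.937), with upper-quartile factors and without control replicate 1 or 3. The transcription factor Irf2 fell from 39.9 ± 1.94 to 15.03 ± 0.550 CPM (log2 fold change -1.41 ± 0.09). The receptor chain Ifngr2 fell by 1.04 on the log2 scale, while the kinase Jak2 rose by 0.70. Ifng itself averaged 0.053 CPM in control and 0.170 CPM under pressure and was not tested.

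The factors that bind class II promoters (the RFX complex, CREB and NF-Y) gave 2 higher and 5 lower of 7, with a median of -0.72. Among the 5, the call of Rfxank was lost with DESeq2 (adjusted p 0.0815) and when any library other than pressure replicate 1 was left out (adjusted p 0.0555 to 0.135). Rfx5, the DNA-binding subunit of the RFX complex, fell from 15.6 ± 0.205 to 6.80 ± 1.42 CPM (log2 fold change -1.20 ± 0.15), Creb1 fell by 1.01 and Nfya by 0.72, and Nfyc rose by 0.81. Most of these genes were lower in the libraries in which the class II chains were higher. In the endosomal class II pathway 3 of 10 were higher and 2 lower: the cathepsin Ctsl rose from 3468 ± 33.4 to 5399 ± 151 CPM (log2 fold change 0.64 ± 0.05), and March1, a ubiquitin ligase that removes class II and CD86 from the cell surface, fell from 11.9 ± 1.17 to 7.43 ± 0.436 CPM (-0.67 ± 0.13).

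Other genes of peptide generation and loading gave 4 higher, 5 lower and 6 that did not pass of 15, with a median of 0.10. The endoplasmic reticulum chaperone Hspa5 rose from 1013 ± 37.7 to 2458 ± 46.0 CPM (log2 fold change 1.28 ± 0.06) and the translocon subunit Sec61a1 rose by 0.49, while Edem1, a factor of glycoprotein degradation, fell by 0.81 and Uggt1, the folding sensor of glycoproteins, fell by 0.47. In the cross-presentation list 1 of 7 was higher and 4 were lower, among them Rab27a (log2 fold change -2.53 ± 0.24) and Stx4a (-1.23 ± 0.12).

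Class I-like molecules outside the H2 prefix gave 2 higher and 3 lower of 7 tested. Mr1, which presents vitamin B metabolites to MAIT cells, fell from 8.06 ± 0.558 to 2.34 ± 0.181 CPM (log2 fold change -1.79 ± 0.15), and Fcgrt, the neonatal Fc receptor, fell by 0.77. Procr, the endothelial protein C receptor, rose from 185 ± 1.76 to 366 ± 51.1 CPM (0.99 ± 0.10), and the NKG2D ligand Ulbp1 rose from 7.23 ± 0.487 to 23.8 ± 6.87 CPM (1.73 ± 0.20). Among other costimulatory and inhibitory ligands 1 of 9 was higher and 6 were lower: Cd40 rose by 0.65, whereas Cd48 fell by 1.24, Tnfrsf14 fell by 2.16 and Lgals9, which encodes galectin-9, by 0.44. Of 3 NOD-like receptor genes related to Nlrc5, Nlrp3, the inflammasome sensor, rose from 2.53 ± 0.237 to 9.84 ± 0.487 CPM (1.95 ± 0.14), and Nlrx1 fell (-1.91 ± 0.24). Naip2 was called lower (-0.38 ± 0.13), but its groups overlapped and the call was lost without control replicate 1, control replicate 3 or pressure replicate 1 (adjusted p 0.0616 to 0.110).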

How the data were processed

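RNA was sequenced from 3 control and 3 pressure libraries as 101-base single reads (stranded mRNA kit, per the labels' protocols). Per the submitters' processing notes the tools were TopHat2 2.2.1 and Cufflinks 2.2.1 with build mm10; what each did, the annotation and the strand setting are not given in those notes or the labels. The deposited values are estimated counts per gene symbol, some of them fractional, made by the authors from reads that can map to several genes; a class I paralogue's value depends on how such reads were split. A value within 0.001 of a whole number was taken as whole.

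Counts were rounded and fitted over the whole table with edgeR 4.0.16 (R 4.3.3, limma 3.58.1): TMM factors, filterByExpr (minimum count 10), the quasi-likelihood test, Benjamini-Hochberg over 12892 genes, threshold 0.05. CPM are TMM-scaled; TMM factors were 0.909 to 0.946 under pressure and 1.07 to 1.08 in control. The standard error is the log2 fold change divided by the square root of F. The script was tested on simulated data. Depth (12922959 counts or more per library) limits genes of a few counts. Alternatives were other scalings, DESeq2 1.42.0, filters, unrounded counts, stricter thresholds, a replicate block and each library left out.

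The members and lists were chosen with earlier results of these data known. Every tested member could be named, and up to 4 called genes with the smallest p from each of 9 pathway lists. The values of 1 such gene are not reported here. The role groups, joined symbols, repeated windows, exon overlaps and promoter letters were added after the data were seen, as was the class II ratio to LSEC markers. The class I sum includes H2-L, which its written definition did not name. Gene positions and exon lengths are from GENCODE M21 (GRCm38), promoter windows from RefSeq.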

Additional observations from a re-analysis of the deposited data

How the results depend on the processing

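Against TMM scaling the median log2 fold change of all genes moved by -0.11 with upper-quartile factors and by -0.21 with library totals alone. Under all 4 scalings 5 members were called higher and 14 lower. The number of members higher was 8 with upper-quartile factors, 5 with library totals, 8 with the replicate block, 8 at an adjusted p of 0.01 and 1 with a log2 fold change of at least 1; leaving out a library gave 8 to 15. The number lower was 2 with a log2 fold change of at least 1. With library totals Tapbp turned to -0.20 (adjusted p 0.0343) and B2m to -0.034, and outside the members Ctsb turned to -0.050, Lgmn to -0.013 and Lamp1 to -0.19. Calls lost under upper-quartile factors had log2 fold changes of 0.18 for H2-Eb1, 0.17 for H2-Q6 and H2-Q8, 0.11 for H2-Q7 and H2-Q9 and 0.067 for B2m; those lost with library totals had 0.35 for H2-DMa, 0.077 for H2-Eb1, 0.070 for H2-Q6 and H2-Q8, 0.0066 for H2-Q7 and H2-Q9, 0.13 for Pdia3 and 0.32 for Cd1d1. Calls of lower were gained by Erap1 (-0.29) and H2-Ke6 (-0.36) with upper-quartile factors, and by Erap1 (-0.39), H2-Ke6 (-0.46), Cd80 (-0.49), H2-L (-0.27) and Psmb10 (-0.30) with library totals. DESeq2 did not call Canx (-0.16) or H2-T10 (-0.30), and without the low-count filter H2-Q7 and H2-Q9 (0.20) were not called. The cause of these changes was not tested.

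The replicate numbers showed no consistent pairing of the libraries: the correlations of same-numbered deviations were 0.20, -0.35 and -0.22. Not every library correlated best with its own number. Deviations from a mean of 3 libraries constrain one another, so these values cannot settle whether the libraries were paired in some way. The replicate block left 8 members higher and 12 lower, and Canx (-0.19), H2-Eb1 (0.28), H2-Q6 and H2-Q8 (0.28), H2-Q7 and H2-Q9 (0.22), H2-T10 (-0.32) and B2m (0.18) were then not called.

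With 1 library left out, log2 fold changes of members whose call changed ranged from -0.22 to -0.15 for Canx, -0.48 to -0.25 for Psmb8, 0.22 to 0.39 for H2-Eb1, 0.21 to 0.36 for H2-Q6 and H2-Q8, 0.18 to 0.28 for H2-Q7 and H2-Q9, -0.35 to -0.26 for H2-T10, 0.14 to 0.31 for H2-M2 and 0.13 to 0.22 for B2m.

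Small list counts moved too. With a log2 fold change of at least 1, higher and lower counts were 1 and 1 for class I-like genes, 0 and 0 for the class II endosomal pathway, 0 and 2 for the class II promoter factors, 0 and 2 for the costimulatory list, 0 and 2 for cross-presentation, 0 and 2 for interferon gamma signalling and 1 and 0 for peptide generation; constitutive proteasome subunits had 0 higher and NOD-like receptors 1 lower. At an adjusted p of 0.01 the lower counts were 1 for NOD-like receptors, 1 for the endosomal pathway, 3 for the costimulatory list and 2 for cross-presentation, and the endosomal pathway had 1 higher. Requiring a mean of 5 CPM left 1 lower NOD-like receptor and 3 lower costimulatory genes. The endosomal pathway had 1 higher with upper-quartile factors, and 1 higher and 6 lower with library totals, where 1 constitutive subunit was higher. With 1 library left out, lower counts ranged from 1 to 2 for NOD-like receptors, 3 to 6 for the costimulatory list and 2 to 4 for cross-presentation, and higher counts from 1 to 3 for the endosomal pathway and 1 to 2 for cross-presentation.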
